A study of Mus musculus with 27 samples.

Results

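H3K27me3 around transcription start sites (TSSs) was compared between induced pluripotent stem cells (iPSCs) and mouse embryonic fibroblasts (MEFs). The members are 4 MNase ChIP-seq libraries of the 27 libraries in the series, 2 replicates of each cell type, read over 1 window for each of 20156 RefSeq genes. A window reaches 2500 bp either side of the TSS given in the expression table, and its value is the number of reads in called nucleosomes whose centre lies in it. Of these windows, 18846 held enough reads to be tested. MEFs came from midgestation embryos that are labelled as hemizygous for an Oct4-GFP transgene and a Rosa26 allele, and the first MEF and iPSC deposits are labelled with a CBA/CaJ and C57BL/6J background. The study's methods add a 129Sv/Jae mother, so that the strain is not given in the same way everywhere. iPSCs were made from such MEFs with the retroviral factors Oct4, Sox2, Klf4 and c-Myc and were grown on MEF feeder layers with serum and LIF, so that both groups carry the same allele labels, although MEF replicate 2 lacks the high signal at Pou5f1 of the other 3 libraries, as described with that gene. The part of feeder cells in the iPSC libraries was not tested. The study's methods name 2 stable pre-iPSC clones and the iPSCs that correspond to them. The labels do not say which clone a library is of, and pooling of embryos is not given in the sources used here, so that p-values measure only the spread between these libraries. edgeR drew the spread of each window entirely from the trend over all windows (infinite prior degrees of freedom), so that its standard errors and p-values do not widen where the replicates of a single window lie apart. MEF chromatin was digested with another amount of MNase and for another time than iPSC chromatin, and the digestion and the cell type cannot be told apart.

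H3K27me3 is the trimethylation of lysine 27 of histone H3. It is written by Ezh1 or Ezh2 in Polycomb repressive complex 2 and is found over silent genes, above all over CpG-rich promoters of developmental regulators. In fibroblasts it covers genes of pluripotency and of other lineages, and in pluripotent cells many lineage genes carry it together with H3K4me3, a mark of promoters, in a state called bivalent.

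The promoters of 2 gained and 2 lost genes are shown first, because CpG content differed between the gained and the lost windows. CpG content was not a term of the test that made the calls. The 250 bases before the TSS are printed 5′ to 3′ with every CpG in capitals, from the reference genome NCBIM37 (mm9), all on the plus strand. Mylk2, a myosin light chain kinase of muscle, headed the genes that gained H3K27me3 to at least 1 RPKM, at chr2:152736838-152737087. Col1a1, the main chain of type I collagen, gained it at chr11:94797334-94797583. Rpp25, a subunit of ribonuclease P, headed the genes that lost the mark from at least 1 RPKM, at chr9:57351659-57351908. Tcfcp2l1, a transcription factor of naive pluripotency, lost it at chr1:120524272-120524521.
Mylk2: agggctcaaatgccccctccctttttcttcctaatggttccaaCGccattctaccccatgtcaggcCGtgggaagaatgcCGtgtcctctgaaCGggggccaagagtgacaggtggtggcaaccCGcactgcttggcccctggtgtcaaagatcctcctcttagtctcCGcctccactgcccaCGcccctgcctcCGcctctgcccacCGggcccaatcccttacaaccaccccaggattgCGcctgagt
Col1a1: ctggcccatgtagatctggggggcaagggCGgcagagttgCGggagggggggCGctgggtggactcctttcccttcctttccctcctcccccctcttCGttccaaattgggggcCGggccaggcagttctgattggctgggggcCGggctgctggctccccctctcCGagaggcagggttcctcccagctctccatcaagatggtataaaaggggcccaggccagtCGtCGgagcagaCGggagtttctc
Rpp25: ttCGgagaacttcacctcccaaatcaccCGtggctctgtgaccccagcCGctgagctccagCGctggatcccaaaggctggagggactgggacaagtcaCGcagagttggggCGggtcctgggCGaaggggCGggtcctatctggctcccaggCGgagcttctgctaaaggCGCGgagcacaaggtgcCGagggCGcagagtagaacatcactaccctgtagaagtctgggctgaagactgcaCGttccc
Tcfcp2l1: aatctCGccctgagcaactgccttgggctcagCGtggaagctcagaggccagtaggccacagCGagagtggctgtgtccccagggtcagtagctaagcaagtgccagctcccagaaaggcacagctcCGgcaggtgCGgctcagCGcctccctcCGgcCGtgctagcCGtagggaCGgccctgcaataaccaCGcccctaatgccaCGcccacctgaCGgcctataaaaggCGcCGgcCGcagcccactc
Mylk2 and Col1a1 each hold 10 CpGs in these bases, Rpp25 holds 14 and Tcfcp2l1 holds 16, so that these single genes do not show the difference in CpG medians given further on. Of all 20156 promoters, 53.6% hold at least 10 CpGs, 42.6% at least 14 and 36.9% at least 16.

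The calls of the H3K27me3 libraries held 13363460 and 15222040 reads in MEFs and 13951675 and 13535035 reads in iPSCs, and a window held a median of 21 to 29 reads. Over windows, log2 counts of the replicates correlated with a Pearson r of 0.866 in MEFs and 0.827 in iPSCs, against 0.593 to 0.718 between the cell types. The fibroblast markers in the RNA-seq data summed to 4353 and 4211 FPKM in MEFs and to 204 and 237 FPKM in iPSCs, with 8 of 8 higher in both MEF libraries, and the pluripotency markers to 0.023 and 0.904 FPKM and to 2282 and 2179 FPKM, with 8 of 8 higher in both iPSC libraries. Macrophage markers summed to 3.31 to 8.13 FPKM, endothelial ones to 0.184 to 16.7 FPKM and neural ones to 22.9 to 51.2 FPKM in these 4 libraries, and their part in the results was not tested. Chromosome 8 held 7.55% of the reads in calls of iPSC replicate 1 and 5.20% to 5.33% in the other H3K27me3 libraries, and the same library number stood apart for H3K4me3 (7.54%) and H3 (7.78%). Chromosome X held 3.31% and 3.56% of the H3K27me3 reads in MEFs and 2.29% and 2.45% in iPSCs. Pou5f1 set the MEF replicates apart, as described with that gene.

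Between iPSCs and MEFs, 3324 windows differed by edgeR's quasi-likelihood test at an adjusted p below 0.05, which is 17.6% of those tested. H3K27me3 was gained in iPSCs at 1886 windows (10.0% of those tested) and lost at 1438 (7.63%). At least 2-fold changes made up 1536 of the gains and 627 of the losses, and at least 4-fold changes 159 and 39. Both iPSC libraries lay above both MEF libraries at 1881 of the gained windows, against 38.5% of all windows tested. They lay below them at 1401 of the lost windows, against 19.4% of all. The libraries were compared here in RPKM scaled to unique reads, not on the scale of the calls. With that scaling the median log2 change of all windows was 0.19, so that the 38.5% and 19.4% depend on it. DESeq2, with a wider estimate of the spread, called 271 of the gained windows (1.44% of those tested) and 176 of the lost ones (0.934%), and no window outside them. Leaving out iPSC replicate 1 left 920 gained and 465 lost windows, leaving out MEF replicate 1 left 977 and 804, leaving out MEF replicate 2 left 1226 and 930, and leaving out iPSC replicate 2 left 1393 and 1025. The balance depended on the scaling. With each library scaled to its unique reads, 2747 windows were gained and 730 lost, and the median of all windows moved by 0.19 on the log2 scale. In a model that asks for a change relative to H3, edgeR called 0 windows, while 2288 had an unadjusted p below 0.05.

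The levels of gained and lost windows are given as a description, since the MEF level is part of the contrast that made the calls. The median of 10-kb bins over the genome was 0.291 to 0.303 RPKM in the 4 libraries. Of the gained windows, 85.5% lay under this genomic level in both MEF libraries, against 49.3% of all windows tested, and 13.6% reached at least 2 times it in both iPSC libraries, against 11.0% of all. Of the lost windows, 50.2% reached at least 2 times it in both MEF libraries, against 13.0% of all. For gained windows outside chromosomes 8, X and Y, the mean level within 500 bp of the TSS was 0.0995 and 0.123 RPKM in MEFs and 0.340 and 0.303 RPKM in iPSCs, and from 500 to 2500 bp downstream it was 0.142 and 0.173 RPKM in MEFs and 0.520 and 0.503 RPKM in iPSCs. For lost windows the downstream level was 0.729 and 0.716 RPKM in MEFs and 0.421 and 0.456 RPKM in iPSCs. Within 500 bp of the TSS the lost windows were at 0.622 and 0.671 RPKM in MEFs and 0.361 and 0.366 RPKM in iPSCs.

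**Figure D1:**
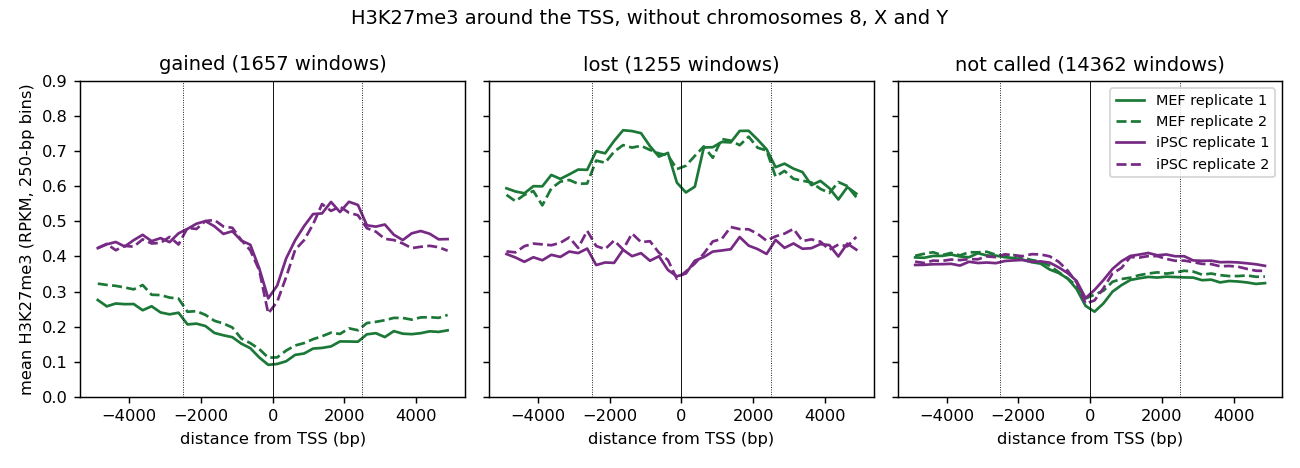
Mean H3K27me3 (y axis, RPKM in 250-bp bins) by distance from the TSS (x axis, bp) in each of the 4 libraries, for 1657 gained, 1255 lost and 14362 windows not called outside chromosomes 8, X and Y. Dotted lines mark the window of 2500 bp either side in which the calls were made, so that the separation of the cell types in the first and second panels follows from the calls. Beyond that window the gained set was still at 0.218 and 0.263 RPKM in MEFs and 0.456 and 0.438 RPKM in iPSCs.

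H3 was read in the same windows. Its median log2 change was 0.48 over gained windows, -0.21 over lost windows and 0.03 over all windows tested. After the H3 change was subtracted, 1857 of 1886 gained and 1411 of 1438 lost windows kept the sign of their change. These windows were called for their H3K27me3 change, with medians of 1.29 and -0.95, so that few could turn and the count is a description only. The model relative to H3 called 0 windows. The H3 library of iPSC replicate 1 stood apart, with a median of 0.379 RPKM over windows against 0.254 to 0.292 RPKM in the other H3 libraries.

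CpG content, which was not a term of the test, differed between the sets. In the 1 kb around the TSS, gained windows held a median of 64 CpGs, lost windows 34 and all windows tested 48. In the 250 bases before the TSS the medians were 16 and 8, against 11 over all promoters, and both were the same outside chromosomes 8, X and Y. With a correction for GC content the counts came to 1808 gained and 1611 lost windows. It kept 2858 of the 3324 calls, so that the calls depend in part on sequence content. The CpG medians were not taken again after the correction. Some calls share reads, because 23.3% of the gained and 8.14% of the lost windows overlap the window of another gene, against 15.2% of all windows tested.

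Genes of fibroblasts gained H3K27me3. Of 50 genes of fibroblasts and their matrix, 34 (68%) gained the mark, against 10.0% of all windows tested, and 0 lost it, and their median log2 change was 1.39, against -0.0015 over all windows tested. DESeq2 called 19 of the 34. The median H3 change of the list was 0.42, and relative to H3 its median H3K27me3 change was 0.81, with 0 members called. Thbs1, the matrix glycoprotein thrombospondin 1, had the largest gain of the list. Its H3K27me3 was 0.0727 and 0.0954 RPKM in MEFs and 0.703 and 0.716 RPKM in iPSCs (log2 change 2.86 ± 0.37 (SE), n = 2 and 2, adjusted p = 6.65e-12). The libraries of the cell types lay far apart and those within a cell type close together. Its expression fell from 1658 and 607 FPKM to 9.88 and 32.8 FPKM.

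Tgfb1, the cytokine that drives matrix production and the mesenchymal state, gained the mark from 0.0848 and 0.106 RPKM to 0.622 and 0.824 RPKM (log2 change 2.71 ± 0.36, adjusted p = 2.51e-11). Axl, a receptor tyrosine kinase of mesenchymal cells, went from 0.0970 and 0.138 RPKM to 0.933 and 0.668 RPKM (2.56 ± 0.34, adjusted p = 2.90e-11). Col1a1 went from 0.0848 and 0.138 RPKM to 0.749 and 0.692 RPKM (2.47 ± 0.34, adjusted p = 3.52e-10). These 3 genes all passed DESeq2 as well. They had no overlap between the cell types, as at 99.7% of all gained windows, against 38.5% of all windows tested. Inhba, a subunit of activin, rose from 0.0606 and 0.180 RPKM to 0.588 and 0.812 RPKM (2.30 ± 0.34, adjusted p = 4.00e-09). Vcam1, an adhesion molecule of stromal cells, rose from 0.0970 and 0.170 RPKM to 0.392 and 0.430 RPKM (1.41 ± 0.36, adjusted p = 0.00205) and was not called by DESeq2 (adjusted p = 0.165). Expression fell in 45 of the 50 genes, by limma on log2(FPKM + 1), against 15.5% of all genes tested, and 33 of the 34 gained genes were among them. H3K4me3 fell at 25 of the 50 genes, against 8.07% of all windows tested for it, and rose at 0.

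The gained genes with the largest falls of expression were taken next. Acta2, smooth muscle actin, had the largest fall of expression among the gained genes, from 5762 and 9151 FPKM to 35.4 and 63.2 FPKM, and its H3K27me3 went from 0.0970 and 0.180 RPKM to 0.438 and 0.489 RPKM (log2 change 1.52 ± 0.36, adjusted p = 0.000522). Tagln (1.76), Cnn1 (1.17), Ankrd1 (0.89) and the calcium-binding protein gene S100a4 (2.00) had the next largest falls of expression, and each gained the mark by edgeR. DESeq2 called S100a4 (adjusted p = 0.00559) and not Acta2 (0.102), Tagln (0.0692), Cnn1 (0.0649) or Ankrd1 (0.392).

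**Figure D2:**
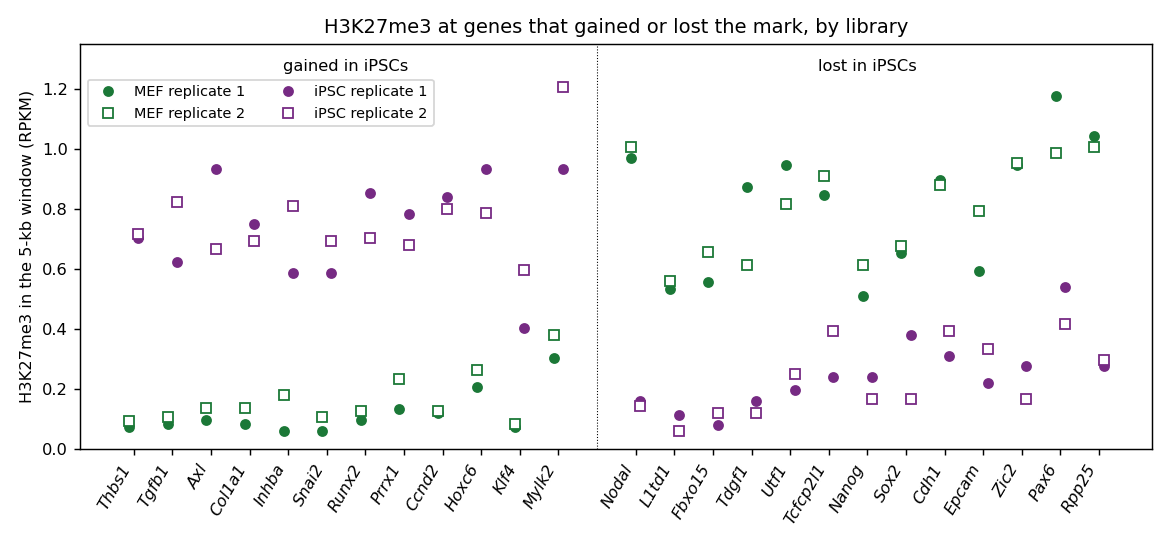
H3K27me3 (y axis, RPKM in the 5-kb window) of 12 gained and 13 lost genes in each library, with filled circles for replicate 1 and open squares for replicate 2, green for MEFs and purple for iPSCs. The cell types do not overlap at any of these genes, which were drawn from the called ones, and Thbs1 has both MEF libraries under 0.1 RPKM and both iPSC libraries above 0.7 RPKM.

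Collagen genes were taken as a family. Of 43 tested, 12 (27.9%) gained the mark, against 10.0% of all windows. The mark was lost at 3 (6.98%), against 7.63% of all, and 28 were not called. The median change was 0.04, or -0.02 with the GC correction. Without chromosomes 8, X and Y the list held 10 gains and 2 losses among 39 tested. Col4a1 and Col4a2, named after their values were seen, had the same change (1.55) and count as 2 of the gains. The largest gains beside Col1a1 were at Col16a1 (2.46), Col5a1 (2.14) and Col6a1 (2.00), chains of fibril-associated, fibrillar and microfibrillar collagens, and all 3 passed DESeq2. The losses were at Col4a6 (-1.12), a basement membrane chain on chromosome X, Col9a2 (-0.88), a cartilage chain, and Col25a1 (-0.62), a membrane-bound collagen, and DESeq2 called 0 of them. The losses numbered 0 without iPSC replicate 1 or with the factors of 10-kb bins, and 1 without MEF replicate 1, without MEF replicate 2 or with unique reads. Expression fell at 20 of the 25 collagen genes tested for it, against 15.5% of all genes tested. It fell at 11 of the 12 that gained the mark, against 42.1% of all gained genes tested. The list median was 0.386 and 0.652 FPKM in iPSCs. A gene near 0 FPKM there passes the filter of a mean of 0.5 FPKM only through other libraries. Its fall is then in part set by that filter.

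Of 45 transcription factors of the mesenchyme, 15 (33.3%) gained the mark and 4 (8.89%) lost it, against 10.0% and 7.63% of all windows tested. The median of 0.09 became -0.10 with the GC correction and -0.24 relative to H3, whose own median change was 0.34. Snai2, a repressor of epithelial genes, went from 0.0606 and 0.106 RPKM to 0.588 and 0.692 RPKM (log2 change 2.71 ± 0.37, adjusted p = 2.00e-10). Runx2, the regulator of bone formation, went from 0.0970 and 0.127 RPKM to 0.853 and 0.704 RPKM (2.58 ± 0.34, adjusted p = 2.98e-11). Neither showed overlap between cell types, as at 99.7% of all gained windows. Runx1 (2.08), Twist2 (1.97) and Prrx1 (1.78) also passed both tests, and Twist1 (0.98, adjusted p = 0.0345) passed only edgeR's. Losses at Tcf21 (-0.88), Alx1 (-0.84) and Meox2 (-0.72) passed edgeR alone. The losses, a share near that of all windows, were 2 with unique reads or the factors of 10-kb bins, and the MEF levels of these 3 genes were 0.558 to 1.09 RPKM. Expression was tested for 14 of the 15 gained genes and fell at all 14. This compares with 42.1% of all gained genes tested and 15.5% of all genes tested. The list median was 0.393 and 0.469 FPKM in iPSCs, so that falls are in part set by the expression filter here too. Without iPSC replicate 1 the list held 9 gained and 1 lost member.

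Hox genes set positional identity along the body axis. Of 39 Hox genes, 9 (23.1%) gained H3K27me3, against 10.0% of all windows tested, and 1, Hoxd10 (-0.80), lost it. The gains numbered 7 to 14 over the scalings, and with the GC correction 7 gained and 5 lost the mark. The median change of the list was 0.24 for H3K27me3 and 0.47 for H3, and relative to H3 it was -0.33. The gains ran from Hoxc6 (from 0.206 and 0.265 RPKM to 0.933 and 0.788 RPKM, log2 change 1.67 ± 0.29, adjusted p = 1.04e-06) through Hoxa3 (1.11), Hoxc8 (1.04), Hoxb2 (1.02) and Hoxb5 (0.81). Hoxb3, Hoxc4 and Hoxc5, named after their values were seen, were also gained. Expression fell in 23 of the 30 Hox genes tested, against 15.5% of all genes tested. It fell in 8 of the 9 gained Hox genes, against 42.1% of all gained genes tested. The list median was 0.620 and 0.666 FPKM in iPSCs, so that these falls too are in part set by the expression filter. DESeq2 called Hoxc6 alone, and the gained members were 3 without MEF replicate 1, 4 without iPSC replicate 2 and 5 without iPSC replicate 1.

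Clustered protocadherins, adhesion molecules of neurons that are read from 3 neighbouring gene clusters on chromosome 18, gained the mark at 25 of 59 windows (42.4%), against 10.0% of all windows tested, and lost it at 0, with a median of 0.69. Neighbouring windows of a cluster share reads and are not independent. Pcdhgc5, the member with the largest gain, went from 0.109 and 0.117 RPKM to 0.426 and 0.430 RPKM (log2 change 1.72 ± 0.37, adjusted p = 0.000152). Pcdhgc4 (1.59), Pcdhgc3 (1.29) and Pcdhga12 (1.27) followed, and DESeq2 called Pcdhgc4 alone (adjusted p = 0.0442). The median H3 change over the list was -0.39. With 1 library left out, the list held 9 to 12 gains. Expression fell at 4 and rose at 1 of 20 members tested for it, near the 15.5% and 10.3% of all genes tested.

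Regulators of the cell cycle in the list of inhibitors were called at 2 of 9 windows, both gains, against 10.0% of all windows gained. The list median was 0.61 for H3K27me3 and 0.27 for H3, and relative to H3 it was -0.12. The gains numbered 4 without MEF replicate 1 or with the factors of 10-kb bins, and 1 without MEF replicate 2 or without iPSC replicate 2. Ccnd2, cyclin D2, listed there for its place in the same pathway, went from 0.121 and 0.127 RPKM to 0.841 and 0.800 RPKM (log2 change 2.52 ± 0.33, adjusted p = 2.98e-11), and its expression fell from 143 and 177 FPKM to 3.40 and 9.73 FPKM. Cdkn2b, an inhibitor of the cyclin D kinases, went from 0.133 and 0.106 RPKM to 0.311 and 0.454 RPKM (1.49 ± 0.38, adjusted p = 0.00160), which DESeq2 did not call (0.166). Its neighbour Cdkn2a, which encodes p16 and p19Arf, stood at 0.303 and 0.138 RPKM in MEFs and 0.184 and 0.275 RPKM in iPSCs. The MEF and iPSC libraries of Cdkn2a overlapped (-0.11 ± 0.37, adjusted p = 0.876).

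Genes of the pluripotency network lost H3K27me3. Of 44 tested, 30 (68.2%) lost the mark, against 7.63% of all windows tested, and 1 gained it, and the median log2 change was -1.38. DESeq2 called 22 of the 30. The median H3 change of the list was -0.30, and relative to H3 its median H3K27me3 change was -1.10, with 0 members called. Without Pou5f1, left out after its MEF libraries were seen to stand apart, 29 of 43 lost the mark. Expression rose at 28 of these 29, against 54.5% of all lost genes tested for it and 10.3% of all genes tested. Nodal, a ligand of the TGF-β family expressed in pluripotent cells, had the largest loss of the list, from 0.970 and 1.01 RPKM in MEFs to 0.161 and 0.143 RPKM in iPSCs (log2 change -2.88 ± 0.31, adjusted p = 6.56e-17). Both iPSC libraries lay under the genomic level and both MEF libraries more than 3 times above it. L1td1, an RNA-binding protein of pluripotent cells, fell from 0.533 and 0.562 RPKM to 0.115 and 0.0597 RPKM (-2.81 ± 0.38, adjusted p = 8.26e-11), and Fbxo15, a target of Oct4 and Sox2, from 0.558 and 0.657 RPKM to 0.0807 and 0.119 RPKM (-2.78 ± 0.36, adjusted p = 1.08e-11). Tdgf1, the Nodal coreceptor, fell from 0.873 and 0.615 RPKM to 0.161 and 0.119 RPKM (-2.57 ± 0.33, adjusted p = 5.61e-12), while H3K4me3 there rose from 0.447 and 0.344 RPKM to 1.17 and 1.22 RPKM and expression from 0 and 0.0833 FPKM to 258 and 488 FPKM.

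Tcfcp2l1 fell from 0.849 and 0.911 RPKM to 0.242 and 0.394 RPKM (log2 change -1.66 ± 0.27, adjusted p = 1.51e-07). Nanog fell from 0.509 and 0.615 RPKM to 0.242 and 0.167 RPKM (-1.64 ± 0.32, adjusted p = 1.25e-05). Sox2 fell from 0.655 and 0.678 RPKM to 0.380 and 0.167 RPKM (-1.46 ± 0.29, adjusted p = 3.18e-05). All 3 passed DESeq2, and their libraries were separate, as at 97.4% of all lost windows. Dppa3, a maternal factor of germ cells and early embryos, fell by 1.06 on the log2 scale (adjusted p = 0.00491), which DESeq2 did not call (0.186). Zfp42 (Rex1) was at 0.255 and 0.297 RPKM in MEFs, near the genomic level of these libraries (0.303 and 0.291 RPKM), and at 0.184 and 0.179 RPKM in iPSCs (adjusted p = 0.112), although its expression went from 0 FPKM in both MEF libraries to 56.0 and 63.9 FPKM. Expression rose in 40 of the 44 genes, against 10.3% of all genes tested, and of these 40 genes 29 lost the mark and 1 gained it. The list median was 0 FPKM in both MEF libraries, so that few members could fall. Esrrb (-0.14), Klf5 (0.01) and Klf2 (0.65), named after their values were seen, were among those that rose in expression with no call for H3K27me3. With 1 library left out, the list held 25 to 29 losses.

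Klf4 was the member that gained the mark, from 0.0727 and 0.0848 RPKM to 0.403 and 0.597 RPKM (log2 change 2.45 ± 0.40, adjusted p = 9.79e-08), while its H3 rose by 2.09 on the same scale. The iPSCs carry retroviral copies of the factor cDNAs, whose reads cannot be told apart from those of the exons of the genes. In the exons of the Klf4 window H3 was at 2.57 and 0.680 RPKM in iPSCs against 0.142 and 0.166 RPKM in MEFs, and outside the exons at 0.512 and 0.176 RPKM against 0.123 and 0.127 RPKM. Outside the exons H3K27me3 of Klf4 was at 0.0742 and 0.0974 RPKM in MEFs and 0.318 and 0.366 RPKM in iPSCs. These values rest on 4 and 6 reads in MEFs and 18 and 20 reads in iPSCs. Calls are placed by their centre, so that reads of the copies near exon edges can be counted outside the exons. Sox2 outside its exon was at 0.763 and 0.708 RPKM in MEFs and 0.204 and 0.141 RPKM in iPSCs. Myc, whose window gained the mark by edgeR alone (1.52 ± 0.36, adjusted p = 0.000674), was at 0.226 and 0.0848 RPKM outside its exons in MEFs and 0.292 and 0.366 RPKM in iPSCs.

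Pou5f1, which encodes Oct4, set the MEF libraries apart. Its H3K27me3 was 4.66 and 0.869 RPKM in MEFs and 1.75 and 1.84 RPKM in iPSCs, so that the iPSC values lay between the MEF values. edgeR called a loss (log2 change -0.81 ± 0.21, adjusted p = 0.00263), DESeq2 did not (0.766), and without MEF replicate 1 the change was 0.90. H3 in 5-kb steps from 10 kb before to 10 kb after the TSS was at 3.14 to 4.60 RPKM in MEF replicate 1, 3.24 to 5.56 and 2.63 to 3.92 RPKM in iPSCs and 0.270 to 0.373 RPKM in MEF replicate 2. In the steps beyond, up to 30 kb on either side, it was at 0.132 to 0.964 RPKM in all 4 libraries. Oct4-GFP reporters carry regulatory DNA of Pou5f1, and MEF replicate 2 carries the same label but not the same level. Reads of the transgene and of the gene cannot be told apart, so that Pou5f1 gives no direction here.

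Epithelial genes lost the mark at 12 of 30 windows (40%), against 7.63% of all windows tested, and gained it at 0, with a median of -0.59, and DESeq2 called 4 of the losses. Over the scalings the losses numbered 7 to 16 and the gains 0 to 2. Cdh1, E-cadherin of epithelial junctions, fell from 0.897 and 0.879 RPKM to 0.311 and 0.394 RPKM (log2 change -1.52 ± 0.26, adjusted p = 9.95e-07), and its expression rose from 0.111 and 0 FPKM to 71.9 and 54.2 FPKM. Epcam, an adhesion molecule of epithelia and pluripotent cells, fell from 0.594 and 0.795 RPKM to 0.219 and 0.334 RPKM (-1.52 ± 0.29, adjusted p = 1.20e-05), and the tight junction gene Cldn4 from 0.533 and 0.964 RPKM to 0.2996 and 0.275 RPKM (-1.58 ± 0.29, adjusted p = 2.57e-06). The libraries of these 3 genes did not overlap, as at 97.4% of all lost windows, against 19.4% of all windows tested. DESeq2 called these 3 genes and Grhl3, a factor of surface epithelia (-1.30). Of the 12 lost genes, 11 were tested for expression and all 11 rose, against 54.5% of all lost genes tested and 10.3% of all genes tested. The list median was 0 and 0.033 FPKM in MEFs, so that few members could fall. The list held 6 losses without iPSC replicate 1 and 8 without MEF replicate 1 or without iPSC replicate 2.

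**Figure D3:**
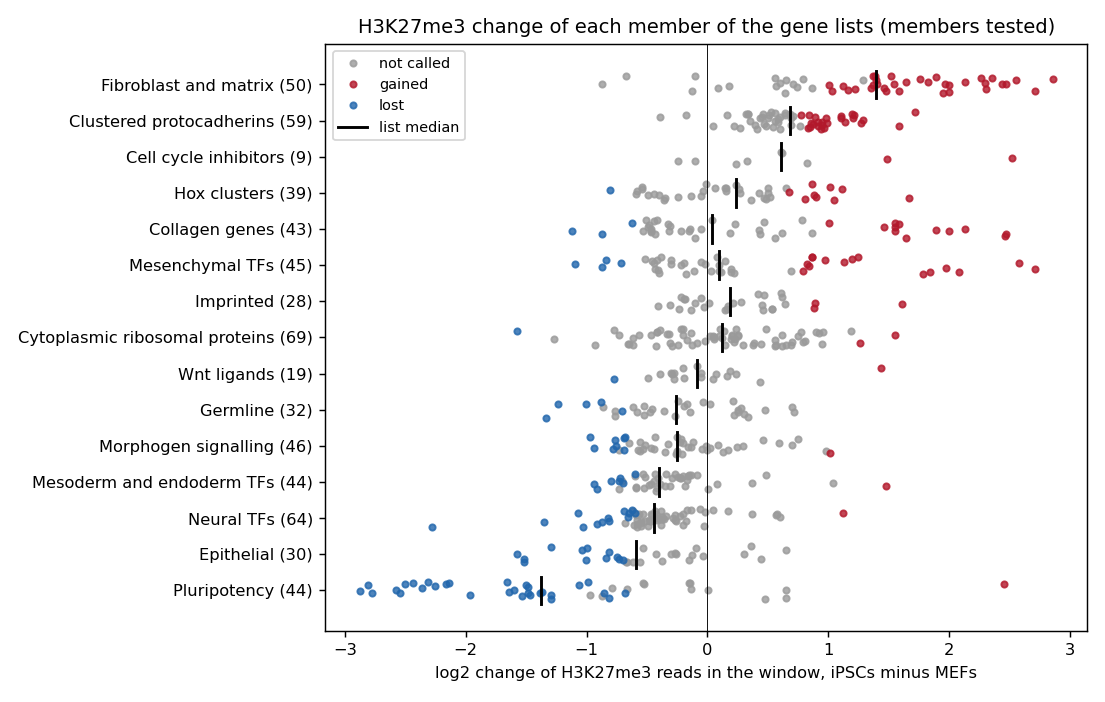
Log2 change of H3K27me3 (x axis, iPSCs minus MEFs) of every tested member of 15 gene lists (y axis, number of members in brackets), with gained members in red, lost members in blue, members not called in grey and the list median as a black bar. Medians run from 1.39 for fibroblast and matrix genes to -1.38 for pluripotency genes, and called members of both directions occur in the collagen and mesenchymal lists.

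Transcription factors of other lineages, which include classical Polycomb targets, were read next. Of 64 neural transcription factors, 13 (20.3%) lost the mark, against 7.63% of all windows tested, 1 gained it and 50 were not called, with a median of -0.44 that ranged from -0.61 to -0.20 over the scalings, and with 5 to 26 losses. Their MEF medians were 0.939 and 0.885 RPKM and their iPSC medians 0.778 and 0.704 RPKM, so that the list stayed well above the genomic level in both cell types. Zic2, a factor of both neural and pluripotent cells, lost the most, from 0.946 and 0.954 RPKM to 0.277 and 0.167 RPKM (log2 change -2.28 ± 0.29, adjusted p = 3.17e-12). Pax6, a factor of eye and forebrain, fell from 1.18 and 0.985 RPKM to 0.542 and 0.418 RPKM (-1.35 ± 0.24, adjusted p = 2.52e-06), and Neurod1, a neuronal differentiation factor, by 1.03 on the log2 scale (adjusted p = 0.000401). DESeq2 called these 3 and no other of the list. Sox3 (-1.07), which lies on chromosome X, passed edgeR alone, and Irx5 (1.12), on chromosome 8, was the gain, which turned to -0.14 relative to H3. Without MEF replicate 1 or without iPSC replicate 1 the losses came to 5.

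Of 44 factors of mesoderm and endoderm, 7 (15.9%) lost the mark, against 7.63% of all windows tested, and 1 gained it. With unique reads, reads in calls or the factors of 10-kb bins the list held 1 loss and 2 gains, and with the GC correction 13 losses and 1 gain. T (brachyury), the factor of the primitive streak, stood at 1.28 and 1.03 RPKM in MEFs and 0.818 and 0.764 RPKM in iPSCs (log2 change -0.73 ± 0.23, adjusted p = 0.0122), with H3K4me3 rising from 0.583 and 0.688 RPKM to 1.12 and 1.19 RPKM. Cdx4 (-0.93), which lies on chromosome X, Tbx20 (-0.92) and Foxa1 (-0.80) were the largest losses, and DESeq2 called 0 of the 7. Gata6, the factor of primitive endoderm, was at 0.642 and 0.646 RPKM in MEFs and 0.565 and 0.621 RPKM in iPSCs and was not called (adjusted p = 0.420). Sox9, a factor of cartilage, was the gain (1.48, adjusted p = 5.45e-05), and DESeq2 called it too (0.0370). The losses numbered 1 without MEF replicate 1 and 0 without iPSC replicate 1.

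Among genes of morphogen signalling 8 of 46 (17.4%) lost the mark, against 7.63% of all windows tested, and 1 gained it. The balance turned with the scaling, to 4 gained and 2 lost with unique reads or reads in calls and 5 and 2 with the factors of 10-kb bins. With the GC correction 2 gained and 14 lost the mark. The losses numbered 2 without iPSC replicate 1, 3 without MEF replicate 2 and 5 without iPSC replicate 2. Jag2 (-0.97), a Notch ligand, Dkk1 (-0.94) and Sfrp2 (-0.78), secreted inhibitors of Wnt signalling, and the hedgehog ligand Dhh (-0.77) lost it, and Grem1 (1.02), an antagonist of BMPs, gained it. Of 19 Wnt ligands, Wnt5a gained (1.44) and Wnt7a lost (-0.77) the mark, 5.26% each, under the 10.0% and 7.63% of all windows. The list held 0 losses without MEF replicate 1, without iPSC replicate 1 or with the factors of 10-kb bins. DESeq2 called 0 of the 46 and 0 of the 19 genes. Of 32 germline genes, 5 (15.6%) lost the mark, against 7.63% of all windows, with 2 losses without iPSC replicate 1 and with 3 losses and 2 gains with the factors of 10-kb bins. The losses were led by Kit (-1.33), the stem cell factor receptor, Stra8 (-1.23), Dmc1 (-1.004) and Dmrt1 (-0.88), and Kit alone passed DESeq2 (0.0166). Expression was tested for 20 of the 32 germline genes and rose in all 20, against 10.3% of all genes tested. The list median was 0 FPKM in both MEF libraries. A member at 0 FPKM there passes the expression filter only through other libraries, so that its rise is largely set by the filter. Imprinted genes gained at 3 of 28 windows (10.7%), a share near the 10.0% of all windows, namely Nnat (1.61), Igf2r (0.89) and Plagl1 (0.88). DESeq2 called 0 of them, and 1 or 2 imprinted genes were gained with 1 library left out, 1 without either iPSC replicate.

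The families listed for contrast are given by their counts, beside the 17.6% of all windows that were called. Cytoplasmic ribosomal protein genes were called at 3 of 69 windows, with MEF medians of 0.109 and 0.127 RPKM, and DESeq2 called 0 of them. Their median change of 0.12 ranged from -0.14 to 0.25 with 1 library left out. Keratin genes were called at 2 of 50, Krt80 (1.67) and Krt222 (-0.84), and with unique reads 6 gained and 0 lost the mark, with reads in calls or the factors of 10-kb bins 7 and 0. Olfactory receptor genes were called at 47 of 1050, of which 41 were losses at low levels, and their median H3 change was -0.82. Their balance turned with the scaling, to 15 gained and 10 lost with unique reads, 19 and 7 with the factors of 10-kb bins and 28 and 11 with the GC correction. DESeq2 called 0 of them, and the losses numbered 6 without MEF replicate 1 and 10 without iPSC replicate 1. The median H3K27me3 change of the receptors, -0.24, became 0.08 with the GC correction.

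The strongest changes at high level were taken from the called genes with a mean of at least 1 RPKM in the higher cell type. Their MEF and iPSC libraries also had to lie apart, so that the separation of the libraries was fixed by the choice. Only 10 gained windows met this choice, against 113 lost ones. The gains below are thus most of those that met it, and the losses are the largest of many. Among the gains, Mylk2 went from 0.303 and 0.381 RPKM to 0.933 and 1.21 RPKM (log2 change 1.45 ± 0.26, adjusted p = 2.13e-06), and H3K4me3 rose there too, by 1.22. Fxyd5, a regulator of the sodium pump, went from 0.279 and 0.487 RPKM to 0.945 and 1.09 RPKM (1.20 ± 0.26, adjusted p = 0.000102). The septin gene Septin5, which the expression table lists as a date, went from 0.376 and 0.413 RPKM to 1.03 and 1.01 RPKM (1.18 ± 0.25, adjusted p = 0.000135), and Maml2, a coactivator of Notch, from 0.558 and 0.509 RPKM to 1.14 and 1.28 RPKM (0.99 ± 0.24, adjusted p = 0.000731). DESeq2 called the first 3 of these genes and not Maml2 (0.0651). Crispld2, Foxl1, Cx3cl1 and Tmem59l on chromosome 8 and Hoxb5 were further high gains that DESeq2 did not call, and relative to H3 the change at these 4 genes of chromosome 8 lay between -0.30 and -0.02.

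Among the losses at high level, Rpp25 fell from 1.04 and 1.01 RPKM to 0.277 and 0.298 RPKM (log2 change -2.02 ± 0.27, adjusted p = 4.48e-11), and its expression rose from 0.811 and 0.375 FPKM to 55.0 and 37.4 FPKM. Notum, an enzyme that inactivates Wnt ligands, fell from 1.03 and 1.18 RPKM to 0.415 and 0.477 RPKM (-1.50 ± 0.25, adjusted p = 2.04e-07). Alpl, tissue-nonspecific alkaline phosphatase and a stain for pluripotent colonies, fell from 0.897 and 1.23 RPKM to 0.450 and 0.466 RPKM (-1.41 ± 0.25, adjusted p = 1.15e-06) while its expression rose from 0.0805 and 0.436 FPKM to 85.0 and 89.6 FPKM. Tcfap2c (-1.37), a factor of trophoblast and germ cells, Slc15a1 (-1.54), a peptide transporter, Celsr3 (-1.44), a cadherin of planar polarity, Sp8 (-1.21) and Lemd1 (-1.15) were further high losses, with Pax6. DESeq2 called these 9 genes too.

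Expression, which had no part in the calls, was read for the same genes. Of the 1723 gained genes tested for expression, 725 fell and 23 rose, against 15.5% lower and 10.3% higher of all genes tested, and the median log2(FPKM + 1) change was -1.12. Of the 1438 lost genes 732 were tested, of which 399 rose and 16 fell, and the median change was 1.38. A gene near 0 FPKM in MEFs passes the filter of a mean of 0.5 FPKM only through other libraries. Such a gene can rise and hardly fall, so that the split of the lost genes is in part set by the filter. A gene near 0 FPKM in iPSCs can likewise fall and hardly rise. Among the gained windows that reached at least 2 times the genomic level, 157 of 219 tested fell and 0 rose. H3K4me3 fell at 287 and rose at 141 of 1885 gained windows tested for it, and rose at 435 and fell at 12 of 1427 lost windows, against 14.5% higher and 8.07% lower of all. The balance of H3K4me3 calls turned with the scaling, from 2793 windows higher and 1551 lower to 1289 higher and 3692 lower with unique reads. H3K4me3 and expression were both lower at 183 of the 1886 gained windows and both higher at 177 of the 1438 lost ones, and these joint counts were not taken over all windows. The median expression in MEFs was 11.7 FPKM for gained and 0.0387 FPKM for lost genes. Without iPSC replicate 1 the calls of expression fell from 3206 to 655 and those of H3K4me3 from 4344 to 1418, and without iPSC replicate 2 the calls of expression fell to 1160.

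**Figure D4:**
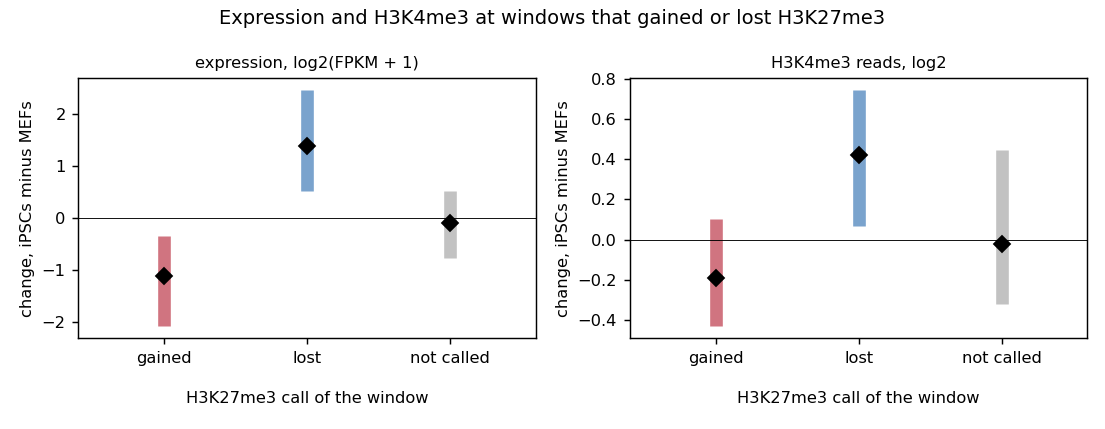
Median (diamond) and quartiles (bar) of the change of expression (left, log2(FPKM + 1)) and of H3K4me3 reads (right, log2), iPSCs minus MEFs (y axes), for windows that gained, lost or were not called for H3K27me3. Medians of expression are -1.12, 1.38 and -0.10, and those of H3K4me3 are -0.19, 0.42 and -0.02.

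Single genes showed each combination. Dppa5a, an RNA-binding protein of pluripotent cells, rose from 0 and 0.321 FPKM to 725 and 842 FPKM and lost the mark (-1.97 ± 0.38, adjusted p = 1.85e-05). Utf1, a chromatin protein of embryonic stem cells, rose from 0 FPKM in both MEF libraries to 544 and 220 FPKM and fell in H3K27me3 from 0.946 and 0.816 RPKM to 0.196 and 0.251 RPKM (-2.16 ± 0.29, adjusted p = 8.45e-11). Upp1, uridine phosphorylase, rose from 1.32 and 0.475 FPKM to 216 and 273 FPKM, with a log2 change of -2.19 in H3K27me3. In the other sense, Gab1, an adaptor of receptor signalling on chromosome 8, gained the mark (1.06, adjusted p = 0.0167) while its expression rose from 3.47 and 2.65 FPKM to 58.9 and 29.1 FPKM, and Baiap2l1, Aldoc, Fos and Acrbp were of the same kind, with gains of 0.77 to 1.19. Cd59a, Capn6 (on chromosome X), Parm1, Pcp4l1 and Pde4dip lost the mark, with log2 changes from -1.29 to -0.65, and fell in expression. DESeq2 called none of these 10 genes, of which Cd59a had no adjusted p. Over all genes of the same kind, DESeq2 called 2 of 23 that gained the mark with higher expression, Klf4 and, named after its values were seen, Samd1 on chromosome 8, and 0 of 16 that lost it with lower expression. Of these, 5 of the 23 and 8 of the 16 had no adjusted p in DESeq2 and could not be called.

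Calls were not even over chromosomes. On chromosome 8, 228 of 928 windows gained the mark and 15 lost it, with median levels of 0.496 RPKM in iPSC replicate 1 and 0.334 RPKM in iPSC replicate 2, and of 0.627 and 0.305 RPKM for H3. On chromosome X, 168 of 643 windows lost the mark and 1, Cask, gained it. The losses on X numbered 74 to 168 over the scalings. They numbered 55 without iPSC replicate 1, 64 without MEF replicate 2, 99 without MEF replicate 1 and 103 without iPSC replicate 2. The median change there was -0.70 for H3K27me3 and -0.70 for H3, so that the decrease of the mark was as large as that of H3. Slc7a3 (-3.18), an amino acid transporter, Taf1 (-2.38) and Klf8 (-2.33) were among the large losses on X, and 10 losses of X passed DESeq2. Without chromosomes 8, X and Y, in a test added after the shares of reads had been seen, 1724 windows were gained and 1359 lost.

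**Figure D5:**
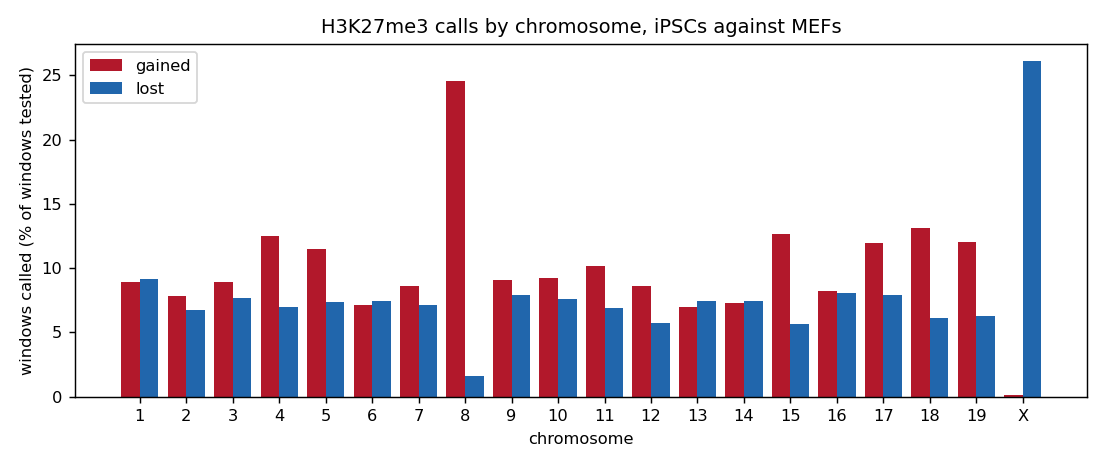
Windows called for H3K27me3 (y axis, % of the windows tested on a chromosome) by chromosome (x axis), gained in red and lost in blue. Gains reach 24.6% on chromosome 8 and losses 26.1% on chromosome X, while the other chromosomes lie between 6.99% and 13.1% for gains and between 5.63% and 9.19% for losses, leaving out Y with 1 window.

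The pre-iPSC libraries, an intermediate state with 2 replicates, are set beside these values as levels only, since they would share controls with the comparison. The median level of windows gained in iPSCs was 0.304 and 0.281 RPKM in pre-iPSCs, against 0.133 and 0.159 RPKM in MEFs and 0.438 and 0.418 RPKM in iPSCs. For lost windows it was 0.416 and 0.452 RPKM in pre-iPSCs, against 0.667 and 0.657 RPKM in MEFs and 0.357 and 0.382 RPKM in iPSCs. Over all 20156 windows it was 0.281 and 0.269 RPKM in pre-iPSCs, 0.242 and 0.254 RPKM in MEFs and 0.323 and 0.310 RPKM in iPSCs. The sets were chosen for a difference between MEFs and iPSCs, so that another cell type can lie between them by the choice alone. Nanog was at 0.349 and 0.293 RPKM, Utf1 at 0.732 and 0.636 RPKM, Col1a1 at 0.574 and 0.734 RPKM and Hoxc6 at 0.371 and 0.196 RPKM in pre-iPSCs. Of these 4 genes, chosen after their values were seen, Utf1 and Hoxc6 lay nearer to their MEF level and Nanog and Col1a1 nearer to their iPSC level.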

How the data were processed

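MEFs were taken from embryos of day 13.5, per the labels. Mononucleosomes were prepared with MNase, enriched with an anti-H3K27me3 antibody and sequenced from MEFs and iPSCs, and H3, H3K4me3 and RNA-seq libraries of the same cell types were read beside them. Per the labels and the study's methods, Bowtie (1.0.1 for the repeat libraries) placed the reads on mm9, and the authors deposited nucleosome calls with whole-number read counts. The authors made the deposited FPKM tables with TopHat2 2.0.4 and Cufflinks 2.0.2, in 1 table for the first deposits and 1 for the repeats. Counts of calls whose centre (start + 73) lay within 2500 bp of a TSS were summed per gene. RPKM per window were scaled to the unique reads of each library. The test was edgeR 4.0.16 (R 4.3.3), quasi-likelihood, TMM, with Benjamini-Hochberg adjusted p below 0.05. DESeq2 1.42.0 was the alternative. Expression was tested with limma 3.58.1 on log2(FPKM + 1), with the table as a term, over all 6 RNA-seq libraries of the series with a mean of at least 0.5 FPKM, and called at an adjusted p below 0.05 and 2-fold.

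With 2 libraries against 2, an exact permutation test of a single value cannot go below p = 0.333, so all p-values come from fits across all features. In data simulated from the means of these libraries over 18846 windows, edgeR recovered 58 of 200 windows changed 2-fold and 191 of 200 changed 4-fold. False calls numbered 1 and 12. Every window was drawn with edgeR's own common dispersion of 0.0139, so that the simulation does not test whether that spread is right. Intervals and counts cover these libraries alone. The members, gene lists and named genes were chosen with earlier results of these data known. Named genes are the 10 largest changes in each direction with at least 1 RPKM in the higher cell type and libraries that do not overlap, up to 4 called members of each list per direction, up to 5 genes per combination with expression, and a fixed set of reprogramming and lineage genes called or not. Further genes are said to be named after their values were seen. Symbols of 24 genes in the expression files were dates and were read by their RefSeq accession. Other scalings, filters, windows and left-out libraries were tried, with effects given at the end. Some genes that meet the rule are not reported here.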

Additional observations from a re-analysis of the deposited data

How the results depend on the processing

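The 3324 windows called for H3K27me3 were 447 with DESeq2, 2073 with calls of at least 2 reads, 1169 with 1000 bp either side and 0 relative to H3, where 2288 had an unadjusted p below 0.05 and DESeq2 was not run. Fewer windows were tested with calls of at least 2 reads (15349) and 1000 bp (9505). edgeR's common dispersion was 0.0139 and the median of DESeq2's fitted values 0.0989. Leaving out 1 library gave 1385 to 2418 windows, fewest without iPSC replicate 1. The share of gains among calls was 56.7%, and became 79.0% with unique reads, 79.3% with reads in calls and 83.7% with the factors of 10-kb bins, where the median of all windows moved by up to 0.24 on the log2 scale. H3K4me3 calls were 710 with DESeq2 and 1418 to 4824 with 1 library left out, against 4344. With unique reads, 25.9% of H3K4me3 calls were higher in iPSCs, against 64.3%. Expression calls were 655 to 3691 with 1 library left out, against 3206, and 48.9% of them were higher in iPSCs with quantile normalization, against 39.9%. The other alternatives kept these counts within 1.5 times. Replicate 1 is the first deposit and replicate 2 the repeat. Over windows, the differences between these replicates in MEFs and in iPSCs correlated with -0.068, and what same-numbered libraries share was not tested further. A fit with the replicate block called 2764 windows, all within the 3324. The causes were not tested.

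Of 126 named genes, DESeq2 left 53 on the same side of the threshold, 63 were no longer called, and 10 had no adjusted p. Relative to H3 the direction turned at Crispld2 (-0.11), Foxl1 (-0.21), Cx3cl1 (-0.024), Tmem59l (-0.30) and Irx5 (-0.14). Pou5f1 ranged from -1.59 to 0.90 over the left-out libraries. Cdkn2a, which was not called, was at 0.082 with unique reads, 0.086 with reads in calls, 0.135 with 10-kb bins and 0.31 with calls of at least 2 reads, and ranged from -0.62 to 0.58 over the left-out libraries. Windows held a median of 21 to 29 reads, which limits the changes that can be seen.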
